A study of Callithrix jacchus with 39 samples.

Results

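Colon, stomach, liver and pancreas, whose epithelium descends from the endoderm of the embryo, were set against heart, kidney, skeletal muscle and spleen, which descend from the mesoderm, in the common marmoset (Callithrix jacchus). The samples were chosen by tissue name: 31 of the 39 samples, made up of 16 H3K27ac libraries (8 of endoderm-derived and 8 of mesoderm-derived tissues) and 15 H3K4me3 libraries (8 and 7). The other 8 samples were inputs and were not analysed here. Each tissue had 2 replicates of each mark, except heart, which had 1 H3K4me3 library. The tissue was the unit of every comparison, with 4 tissues against 4. Chromatin had been immunoprecipitated with antibody ab4729 against H3K27ac or ab8580 against H3K4me3, and 1 list of peaks was deposited for each library. The labels gave the tissue and the antibody, with no sex, age or animal. They did not say whether replicates 1 and 2 came from different animals, so the spread between replicates may be technical. Nor did they say whether an animal gave several tissues, so the tissues may not be independent.

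H3K27ac, acetylation of lysine 27 of histone H3, marks promoters and enhancers that are in use, and H3K4me3, trimethylation of lysine 4, marks the start sites of genes. A stretch with H3K27ac and no H3K4me3 is commonly read as a candidate enhancer, and such stretches tend to differ more between cell types than promoters do. The endoderm gives rise to the lining of the gut and to the epithelium of liver and pancreas, while the mesoderm gives rise to muscle, heart, kidney and blood-forming tissue. The germ layer names hold for whole organs only in part, because the wall of colon and stomach also holds smooth muscle, connective tissue, vessels and blood cells of mesoderm origin. In bulk tissue, fewer cells of a type and less of a mark per cell cannot be told apart. No gene annotation of the build of the peak lists was used here, so the tissues were not checked against marker genes, and regions are given by their position on the calJac3 assembly.

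The H3K27ac libraries held 30803 to 51554 peaks in endoderm-derived tissues and 24590 to 37118 in mesoderm-derived tissues. Averaged by tissue, this was 39012 ± 7347 peaks covering 32.7 ± 8.26 Mb in endoderm-derived tissues and 31780 ± 4393 peaks covering 23.2 ± 4.11 Mb in mesoderm-derived tissues (SD, n = 4 each). The covered lengths differed by 0.48 on the log2 scale, and the exact two-sided permutation test over the 35 ways to divide 8 tissues into sides of 4 gave p = 0.0857. H3K4me3 lists averaged 21114 ± 1351 peaks and 21.4 ± 2.28 Mb in endoderm-derived tissues and 19424 ± 1643 peaks and 17.6 ± 2.58 Mb in mesoderm-derived tissues (SD, n = 4 each; exact permutation p = 0.171 for number and 0.0857 for covered length). The depth of the libraries is unknown, since the lists hold no reads. Without the first H3K4me3 library of pancreas, which had 16386 peaks against 22107 in the second, the differences in H3K4me3 number and length were 0.172 and 0.386 on the log2 scale (exact permutation p = 0.0286 each). The 35 divisions allow no p below 0.0286. Benjamini-Hochberg adjustment covered 13 exact tests, 12 over these divisions and 1 by sign flips over 8 tissues, which allows a p down to 0.00781. Other exact p-values given, such as those with a tissue or library left out, were not adjusted. After adjustment over those 13 the smallest adjusted p was 0.124, so no difference between the sides passed a threshold of 0.05. The 13 include H3K4me3 shares at regions that had been chosen on the true division, whose p supports nothing. The share at endoderm-derived regions was among the tests at the smallest p. The adjusted 0.124 of the others would be higher without it.

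Maps of H3K27ac were somewhat more alike within a side than across sides. The Jaccard index, the length covered in both of a pair of tissues over the length covered in either, averaged 0.328 ± 0.0495 over the 12 pairs on the same side and 0.301 ± 0.0456 over the 16 pairs of different sides (SD over pairs, which share tissues). The difference of 0.027 was the largest among the 35 divisions (exact permutation p = 0.0286, adjusted p = 0.124). It was smaller than the SD among pairs of either kind, and the ranges overlapped. Colon with stomach had the highest index, 0.415, and pancreas with stomach the next, 0.41. The third highest crossed the sides, with 0.371 for stomach with kidney, and heart with kidney followed with 0.369. The most unlike pairs were colon with skeletal muscle at 0.236 and liver with skeletal muscle at 0.238, both across sides, but skeletal muscle with spleen, a mesoderm-derived pair, reached no more than 0.256. The difference depended on single tissues. It was 0.0129 without colon (exact permutation p = 0.371), 0.0236 without stomach (p = 0.0571), 0.0248 without liver (p = 0.0857) and 0.0261 without heart (p = 0.0571).

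The endoderm-derived pairs ranged from 0.275 for colon with liver to 0.415, with a mean of 0.34 ± 0.0583, and the mesoderm-derived pairs from 0.256 to 0.369, with a mean of 0.315 ± 0.04 (SD over 6 pairs each). This difference of 0.0258 had an exact permutation p = 0.6. Its sign changed when stomach or skeletal muscle was left out, to -0.00818 and -0.00389. Liver stood away from colon and stomach within its own side, at 0.275 and 0.299, while pancreas came nearer to kidney, at 0.361, than to liver, at 0.322, or colon, at 0.323. Unequal covered lengths lower the index that a pair can reach. The liver lists covered 40.5 and 47.4 Mb, against 24 and 24.9 Mb in stomach. The part of covered length in the low values of liver was not tested.

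H3K4me3 maps were more alike between tissues. Their Jaccard index averaged 0.593 ± 0.0325 over same-side pairs and 0.573 ± 0.0376 over pairs across sides, a difference of 0.0198 (SD over 12 and 16 pairs; exact permutation p = 0.0571, adjusted p = 0.186). Stomach with kidney, across sides, had the highest index of all, 0.661, ahead of colon with stomach at 0.655. Without kidney the difference was 0.0386 (exact permutation p = 0.0286), and without the first H3K4me3 library of pancreas it was 0.0345 (p = 0.0286). It was smaller without the second H3K4me3 library of pancreas, at 0.00517 (exact permutation p = 0.657), without the first of skeletal muscle, at 0.00663 (p = 0.457), without colon, at 0.0111 (p = 0.314), and without heart, at 0.0128 (p = 0.171). Between replicates of a tissue the H3K27ac index was 0.474 in kidney to 0.58 in stomach. The H3K4me3 index of replicates was 0.467 in skeletal muscle and 0.518 in pancreas, below the mean of pairs across sides. In the other tissues with both replicates it was 0.66 in colon to 0.735 in stomach. The part of replicate agreement in the differences between sides was not tested.

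**Figure D1:**
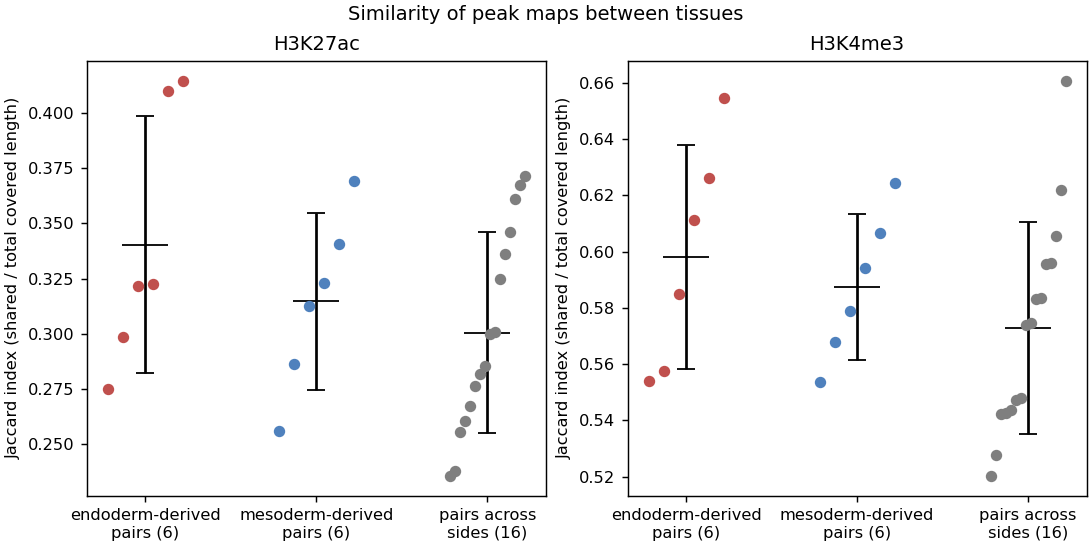
Jaccard index of each pair of tissues for H3K27ac (left) and H3K4me3 (right), by kind of pair; points are pairs, the horizontal bar is the mean and the whiskers are 1 SD over pairs. The 3 kinds of pair overlap in both marks, and for H3K27ac the 2 highest points, 0.415 and 0.41, are endoderm-derived pairs.

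The regions of one side were sought among H3K27ac peaks that overlapped a peak of the other replicate of their tissue. Merged over the tissues, these peaks gave 65161 regions. A peak found in 1 replicate alone opened no region but counted when absence was judged. A tissue was counted as having a region when peaks of both of its replicates lay in it and overlapped. A one-sided region was one found in 2 or more tissues of one side with no peak in any of the 8 libraries of the other side. There were 2862 endoderm-derived regions, 4.39% of all regions, and 439 mesoderm-derived regions, 0.674% of all. Of the 20885 regions found in 2 or more endoderm-derived tissues, 13.7% had no peak on the other side, and of the 15229 found in 2 or more mesoderm-derived tissues, 2.88% had none. Together they were 3301 regions, 5.07% of all and 12.2% of those found in 2 or more tissues. The true division gave the highest sum of the 35, whose mean was 1884 (exact permutation p = 0.0286, adjusted p = 0.124).

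The place of this sum among the divisions depended on colon, stomach, liver and pancreas each. Without colon it was 1899 (exact permutation p = 0.514), without stomach 2080 (p = 0.514), without pancreas 2812 (p = 0.457) and without liver 2866 (p = 0.0857). It was 12538 (exact permutation p = 0.0571) when a peak in either replicate was enough for presence, and 3659 (p = 0.0571) without the second H3K27ac library of kidney. The endoderm-derived lists were longer, and a longer list can hold more regions. With all H3K27ac lists limited to their 24590 strongest peaks, the length of the shortest, 1477 endoderm-derived and 507 mesoderm-derived regions were found, and their sum of 1984 was again the highest of the divisions (exact permutation p = 0.0286). The excess of endoderm-derived regions was thus 2.91-fold in lists of equal length, against 6.52-fold in the lists as deposited. Lists with equal numbers of peaks still differed in covered length, by 0.351 on the log2 scale (exact permutation p = 0.0571). The ratio of the sides was not tested. With 1 tissue left out the ratio ranged from 2.32 without liver to 26.5 without skeletal muscle. Single tissues and libraries moved the counts by more than 1.5 times. Endoderm-derived regions numbered 1421 without colon and 1586 without stomach. Mesoderm-derived regions numbered 122 without skeletal muscle, 239 without heart and 279 without kidney, and 862 without liver and 688 without pancreas, whose peaks then no longer counted against a region. Leaving out 1 library lowers the bar for presence in its tissue, and the mesoderm-derived count was then 817 and 788 without the first and the second heart library, 738 without the first kidney library and 785 without the second spleen library.

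**Figure D2:**
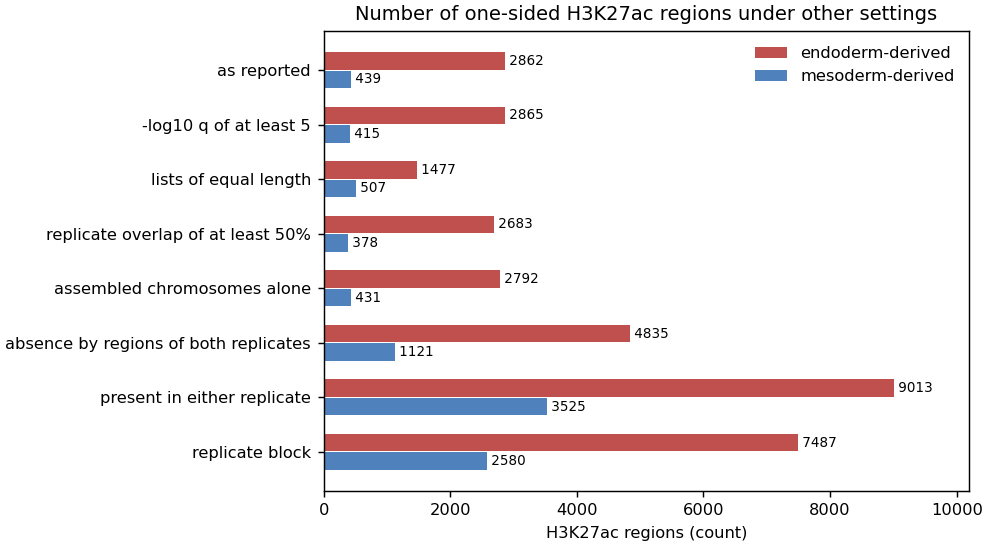
Number of one-sided H3K27ac regions under each way of counting, endoderm-derived above mesoderm-derived. The endoderm-derived count is the higher in every setting drawn, and among the settings drawn the gap is narrowest as a ratio for presence in either replicate, 9013 against 3525.

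Most one-sided regions belonged to few tissues. Of the endoderm-derived regions 2209 were found in 2 tissues, 526 in 3 and 127 in all 4. Of the mesoderm-derived regions 415 were found in 2 tissues, 24 in 3 and 0 in all 4, and with lists of equal length the numbers found in 4 tissues were 45 and 3. The gut organs led the endoderm-derived side: colon had 70.8% of its regions, stomach 65.7%, liver 48% and pancreas 42.7%. On the mesoderm-derived side skeletal muscle had 78.1%, heart 50.3%, kidney 40.8% and spleen 36.2%. Set against the regions each tissue had in both replicates, one-sided regions were 9.92% in stomach, 8.47% in colon, 5.75% in pancreas and 4.49% in liver. They were 1.59% in skeletal muscle, 1.57% in heart, 1% in kidney and 0.849% in spleen. The tissues of the sides did not overlap in this share, but each region counted in 2 or more tissues of its side. The shares thus largely restate the totals of the sides and are not separate values of each tissue.

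Single pairs of related organs held a large share on either side. Colon with stomach alone held 969 regions, 33.9% of the endoderm-derived regions, and heart with skeletal muscle alone held 148, 33.7% of the mesoderm-derived ones. Liver with pancreas followed with 425 and colon with liver with 362, while liver with stomach had 125. On the mesoderm-derived side kidney with skeletal muscle had 95, skeletal muscle with spleen 81, kidney with spleen 38, heart with kidney 27 and heart with spleen 26. With the regions of the leading pair left aside, 1893 endoderm-derived and 291 mesoderm-derived regions remained.

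**Figure D3:**
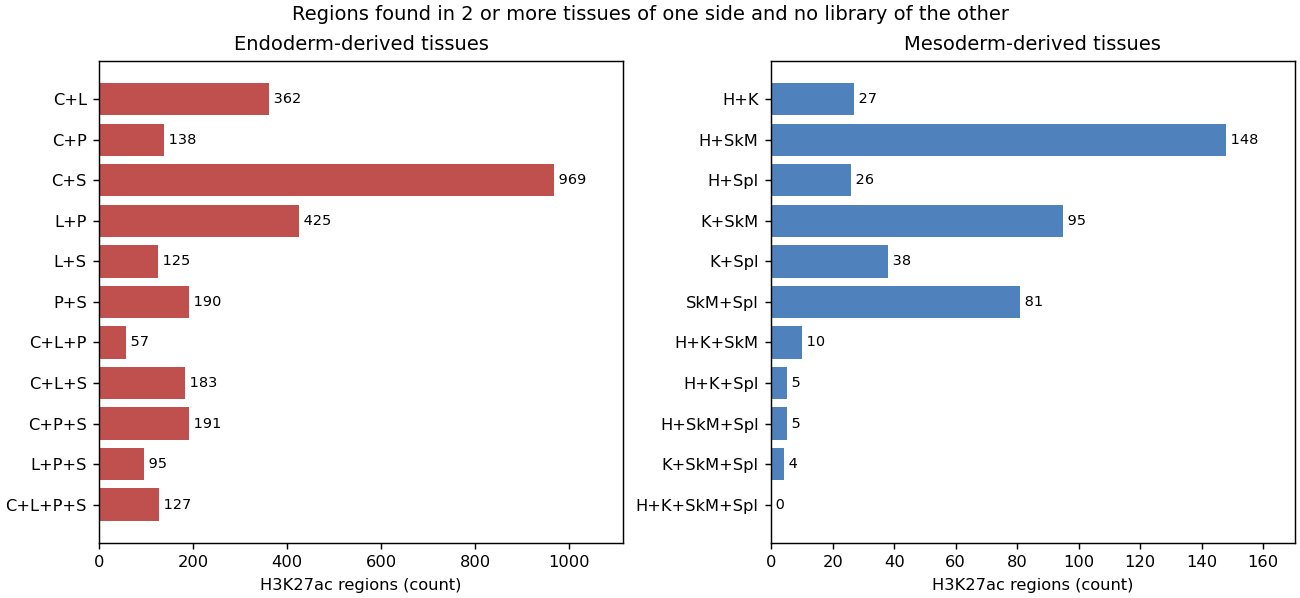
One-sided H3K27ac regions by the exact set of tissues that had them (C colon, L liver, P pancreas, S stomach; H heart, K kidney, SkM skeletal muscle, Spl spleen); the horizontal axes differ in scale. Colon with stomach leads with 969 and heart with skeletal muscle with 148, and no region was found in all 4 mesoderm-derived tissues.

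A stricter look at pairs counted regions that had a peak in exactly 2 tissues and in no library of the other 6. Same-side pairs averaged 150 ± 205 such regions and pairs across sides 82.3 ± 108 (SD over 12 and 16 pairs), a difference of 68 with an exact permutation p = 0.343. Colon with stomach had 732, the most of the 28 pairs. Liver with kidney, across sides, came next with 400, ahead of liver with pancreas at 317, liver with skeletal muscle at 233 and colon with liver at 232. Without kidney the difference was 154 (exact permutation p = 0.0286), while it was 17.7 without colon (p = 0.8), 34.5 without stomach (p = 0.429) and 34.5 without the second H3K27ac library of kidney (p = 0.714).

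The edge of the rule lay mostly at kidney on one side and at liver and pancreas on the other. Regions found in 2 or more endoderm-derived tissues with a peak in exactly 1 library of the other side numbered 1199, and the mirror class numbered 374. Of the 1199, the lone peak was in the first kidney library in 398 and in the second in 190, and in 78 to 137 in each of the other 6 libraries. Counted by tissue, 1343 regions of 2 or more endoderm-derived tissues had peaks in kidney and no other mesoderm-derived tissue, against 447 for spleen, 363 for skeletal muscle and 270 for heart. In 727 of the 1343 both kidney replicates had the peak. In the mirror class, 400 regions of 2 or more mesoderm-derived tissues had peaks in liver and no other endoderm-derived tissue, 248 in pancreas, 55 in stomach and 37 in colon. Liver had the longest endoderm-derived lists, 46317 and 51554 peaks. The kidney lists held 32794 and 31674 peaks, fewer than those of skeletal muscle. The part of list length in these counts was not tested. At the other end, 7442 regions were found in all 8 tissues.

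One-sided regions lay mainly outside H3K4me3. The median length was 1358 bp for endoderm-derived and 1198 bp for mesoderm-derived regions, against 1052 bp for all regions. Regions of exactly 2 tissues of different sides had a median of 1311 bp and regions of 2 to 4 tissues on both sides 1401 bp. No H3K4me3 peak of any library touched 2118 of the endoderm-derived regions, 74%, or 331 of the mesoderm-derived ones, 75.4%, so both sets were largely enhancer-like. The share over all regions was 63.7%. Regions of exactly 2 tissues of different sides had 75.3%, close to the one-sided sets. The enhancer-like members lay at a median distance of 17.8 kb from the nearest H3K4me3 peak on the endoderm-derived side and 19.5 kb on the mesoderm-derived side, against 19.4 kb for all enhancer-like regions.

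Length and H3K4me3 changed with the number of tissues on the endoderm-derived side. The median length was 1260 bp in regions of 2 tissues, 1679 bp in regions of 3 and 2120 bp in regions of all 4. A region is the merged span of the peaks of its tissues, so its length can grow with their number by construction. The share without H3K4me3 was 77.5% in regions of 2 tissues, 63.7% in regions of 3 and 55.1% in regions of all 4. Longer regions can meet more peaks of any kind, and the part of length in this order was not tested. On the mesoderm-derived side the share was 75.4% in regions of 2 tissues and 75% in the 24 regions of 3.

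Where a one-sided region did carry H3K4me3, it was mostly H3K4me3 of the same side. Among the 744 endoderm-derived regions with an H3K4me3 peak, 496 had it in endoderm-derived tissues alone, 240 on both sides and 8 in mesoderm-derived tissues alone. Among 108 mesoderm-derived regions, 69 had it in mesoderm-derived tissues alone, 36 on both sides and 3 in endoderm-derived tissues alone. H3K4me3 of the own side alone was thus found at 17.3% of the endoderm-derived and 15.7% of the mesoderm-derived regions. Over all regions 6.58% had H3K4me3 in endoderm-derived tissues alone, 2.88% in mesoderm-derived tissues alone and 26.8% on both sides. The 240 and 36 regions, 8.39% and 8.2% of their sets, had the promoter mark on both sides but acetylation on one. In 24 endoderm-derived and 3 mesoderm-derived regions every H3K4me3 library had a peak.

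H3K4me3 took no part in choosing the H3K27ac regions, but it was measured in the same tissues, and both marks meet at promoters. The regions of one side were chosen for H3K27ac on that side, so a higher H3K4me3 share there is a description and not a separate sign of a difference between the sides. At the 2862 endoderm-derived regions, H3K4me3 was present in 13.4% and 16.6% in the colon libraries, 9.96% and 14.4% in liver, 5.14% and 10.9% in pancreas and 12.3% and 12.9% in stomach. It was present in 3.53% in the heart library, 5.84% and 6.39% in kidney, 2.17% and 6.39% in skeletal muscle and 1.78% and 3.56% in spleen. By tissue this was 12 ± 2.9% in endoderm-derived tissues and 4.15 ± 1.47% in mesoderm-derived tissues (SD, n = 4 each; difference 7.8 percentage points). The tissue means did not overlap, but the first pancreas library lay below both kidney libraries. Over all regions the shares were 24.6 ± 1.9% in endoderm-derived and 22.3 ± 1.2% in mesoderm-derived tissues, a difference of 2.261 points (exact permutation p = 0.0857, outside the 13 adjusted tests). The share was also computed at regions chosen anew for each of the 70 ways to name 4 of the 8 tissues as one side, as the share in those 4 tissues minus that in the other 4. It was positive for all of them, from 2.27 to 9.08 points with a mean of 5.42, and the 7.8 points of the true division were exceeded by 5 (exact permutation p = 0.171).

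At the 439 mesoderm-derived regions the order was the other way round but the tissues overlapped. H3K4me3 was present in 4.01 ± 0.839% in endoderm-derived tissues and 8.26 ± 4.3% in mesoderm-derived tissues (SD, n = 4 each; difference -4.24 points, with an exact permutation p = 0.6 when regions were chosen anew for each division). Skeletal muscle had 5.92% and 19.1% in its libraries, heart 10.3% and kidney 7.74% in both. Spleen, with 2.51% in both libraries, lay below every endoderm-derived tissue mean, of which stomach had the highest, 5.24%. The difference was -7.95 points without spleen, -4.86 points with lists of equal length, -2.49 points without skeletal muscle and -2.59 points without the second H3K4me3 library of skeletal muscle, which had the 19.1%.

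**Figure D4:**
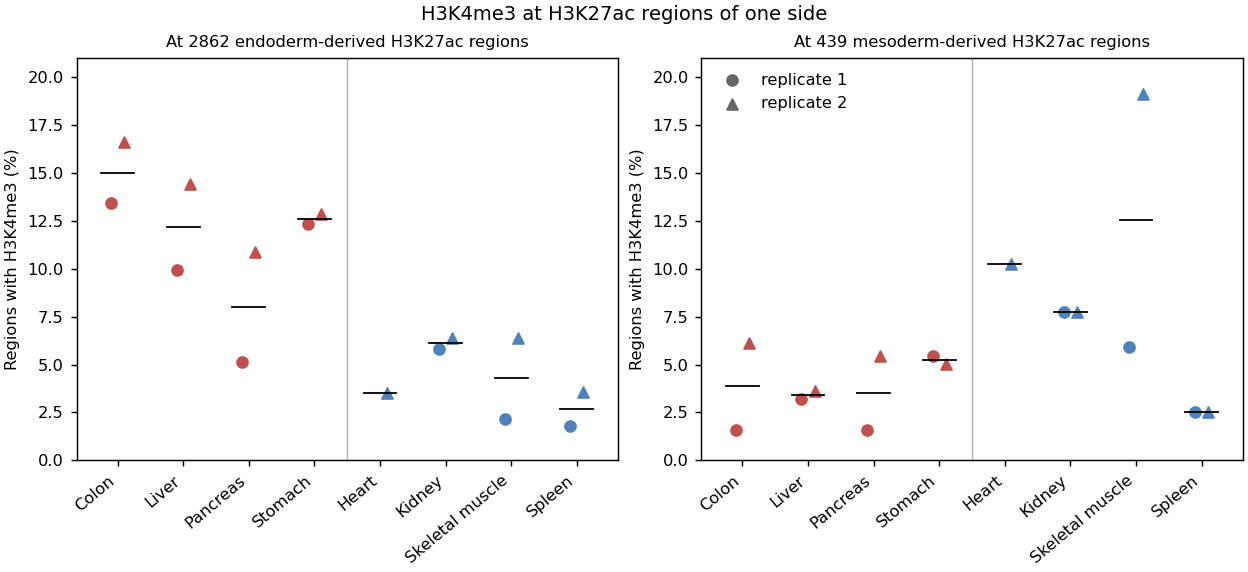
Share of one-sided H3K27ac regions with an H3K4me3 peak in each library (symbols) and the tissue mean (bar), endoderm-derived tissues left of the line and mesoderm-derived tissues right of it. At the endoderm-derived regions (left) all 4 endoderm-derived means lie above the other 4, while at the mesoderm-derived regions (right) spleen lies below the endoderm-derived tissues.

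Whether regions shared within a side were more often enhancer-like was asked for each tissue, among its regions of exactly 2 tissues. The share without H3K4me3 averaged 77.4 ± 7.45% with a partner on the same side and 76.5 ± 3.31% with a partner on the other side (SD, n = 8 tissues). The difference of 0.874 points was positive in 6 of 8 tissues, and the exact sign-flip permutation test gave p = 0.742. Each region counted for both of its tissues, so the 8 values were not independent. The sign-flip p-values given here do not allow for this. Heart had 63.3% with same-side and 77.3% with other-side partners, and spleen 89.6% and 80.9%, so the tissues differed in both directions. Without heart the difference was 6.47 points (exact permutation p = 0.0156), without skeletal muscle 5.57 points (p = 0.0469), and without the first or the second H3K27ac library of heart 3.01 or 3.53 points (p = 0.00781 and 0.0391). Without pancreas, kidney or spleen it was negative, at -0.591, -0.521 and -1.74 points.

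One-sided regions lay near one another more often on the endoderm-derived side, which also had more of them to join. Members within 12 kb of each other formed 385 groups of 2 or more that held 853 endoderm-derived regions, 29.8%, with at most 5 in a group. On the mesoderm-derived side 25 groups held 50 regions, 11.4%, with at most 2. By chromosome, leaving the Y with its 70 regions aside, endoderm-derived regions made up 2.27% of the regions of the X to 5.42% of those of chromosome 17. Mesoderm-derived regions made up 0.421% on chromosome 18 to 1.23% on chromosome 19.

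The strongest endoderm-derived regions, taken by number of tissues and then by mean covered length, show the pattern library by library. These regions were chosen on the values given, which are therefore a description. The first, chr18:44684496-44689119, had 4.5 and 2.76 kb of H3K27ac in the colon libraries, 3.95 and 3.87 kb in liver, 2.85 and 2.67 kb in pancreas and 2.44 and 2.58 kb in stomach, with 0 in all 8 mesoderm-derived libraries. Its H3K4me3 was limited to liver, with 0.39 and 1.84 kb. The second, chr12:3033596-3037488, had 3.71 and 3.47 kb in colon, 3.41 and 3.43 kb in liver, 3.51 and 3.65 kb in pancreas and 2.02 and 2.29 kb in stomach. H3K4me3 was present there in all 8 endoderm-derived libraries, from 0.38 to 2.02 kb, and in 3 mesoderm-derived libraries, up to 0.478 kb. The third, chr16:33720724-33724448, had 2.27 to 3.22 kb of H3K27ac in every endoderm-derived library and H3K4me3 in 6 of them, with none in mesoderm-derived libraries.

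The other 7 of the first 10 differed in which tissue led and in whether they carried H3K4me3. At chr13:68693252-68697871 colon led with 4.62 and 4.11 kb, against 1.31 to 2.19 kb in the other endoderm-derived libraries. At chr4:40493205-40497813 colon was the lowest, with 1.45 and 0.486 kb, and liver, pancreas and stomach had 2.72 to 3.89 kb. The region chr15:34227002-34231231, with 1.29 to 3.76 kb, and the region chr11:3592903-3596707, with 0.683 to 3.57 kb, had no H3K4me3 in any of the 15 libraries. The 2 longest regions of colon with stomach alone were of another kind. The one at chr4:108912161-108918633 had 6.44 and 5.07 kb in colon and 0.916 and 2.1 kb in stomach, 0 in all 12 other libraries, and no H3K4me3 in any of the 15 libraries. The one at chrX:75827931-75833674 had 5.74 and 3.95 kb in colon and 5.05 and 2.64 kb in stomach, 0 in all 12 other libraries, and H3K4me3 in all 4 H3K4me3 libraries of colon and stomach and no other.

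The endoderm-derived group with the largest covered length spanned 19926 bp at chr5:28295333-28315258 and held 5 regions, among them the ninth region of the ranking, chr5:28304274-28307647. Its H3K27ac covered 9.94 and 12.9 kb in pancreas, 8.6 and 8.57 kb in stomach, 7.57 and 9.12 kb in liver and 3.17 and 1.58 kb in colon. The fifth region of the ranking, chr5:28130316-28134346, lay on the same chromosome at lower coordinates. The next groups were each led by other tissues. At chr11:109479605-109489531 colon led with 9.22 and 8.41 kb, and at chr10:29988832-30012715 liver led with 11.9 and 12.5 kb, pancreas following with 6.91 and 6.77 kb and colon and stomach at 0. The span on chromosome 10 carried H3K4me3 in all 15 libraries, although its H3K27ac was found in liver and pancreas alone. The group at chr5:139895227-139909007, with 1.59 to 7.38 kb in the 8 endoderm-derived libraries, had no H3K4me3 in any library, and the group at chr10:62224257-62233981 was found in 7 of 8.

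**Figure D5:**
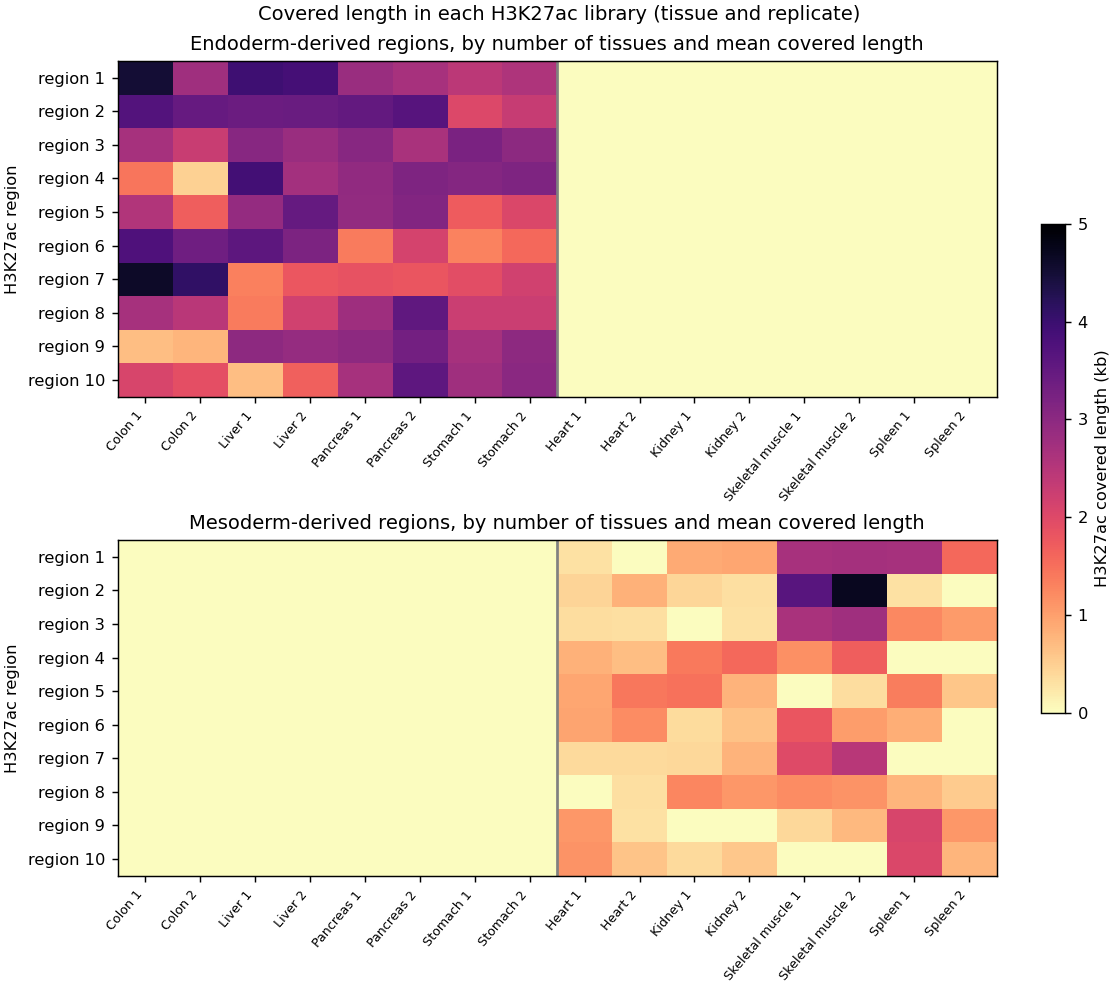
H3K27ac covered length in kb in each library at the 10 leading endoderm-derived (top) and 10 leading mesoderm-derived regions (bottom), chosen by number of tissues and covered length. The 10 endoderm-derived regions are of 4 tissues, so they are covered in all 8 of their own libraries by rule. The 10 mesoderm-derived regions are of 3 tissues, since 0 were found in 4, and each lacks a peak in 1 or 2 of its own 8. The blank cells of the other side also follow from the rule.

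The leading mesoderm-derived regions were smaller and patchier. They were regions of 3 tissues, since 0 were found in all 4. The leading endoderm-derived regions were of all 4 tissues, which requires a peak in all 8 libraries. The contrast in length and libraries is thus not separate from the number of tissues. The first, chr6:75017589-75020764, had 2.66 and 2.71 kb in skeletal muscle, 2.69 and 1.57 kb in spleen, 0.896 and 0.936 kb in kidney and a peak of 0.302 kb in 1 of the heart libraries. The second, chr22:24289832-24294526, was carried by skeletal muscle, with 3.63 and 4.7 kb, and reached 0.312 to 0.814 kb in the heart and kidney libraries and in 1 spleen library. None of the 10 was found in more than 7 of 8 libraries, and no mesoderm-derived region at all was found in all 8, against 134 endoderm-derived regions that were. The 2 longest regions of heart with skeletal muscle were chr2:204192149-204198256, with 5.93 and 5.88 kb in skeletal muscle and 0.803 and 0.391 kb in heart, and chr2:99353205-99357300, with 3.43 and 4.02 kb in skeletal muscle and 1.29 and 0.894 kb in heart. H3K4me3 was found at both of them in the second skeletal muscle library, which held 24424 H3K4me3 peaks against 16850 in the first. At chr2:204192149-204198256 the second liver library also had 0.394 kb of it. No other library had H3K4me3 at either region. The group with the largest covered length, chr8:111681957-111686585, was led by skeletal muscle and spleen.

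For H3K4me3 the same rule left far fewer regions. Of 23034 merged H3K4me3 regions, 307 were endoderm-derived, 1.33% of all and 1.83% of those found in 2 or more endoderm-derived tissues. The mesoderm-derived regions numbered 46, 0.2% of all and 0.305% of those found in 2 or more mesoderm-derived tissues. The sum of 353 was 1.53% of all and 1.93% of those found in 2 or more tissues, with a mean of 217 over the 35 divisions and an exact permutation p = 0.2. Colon with stomach alone held 160 of the 307, colon was in 83.4% and stomach in 80.5%, and without colon or stomach the sum fell to 156 and 184, below the mean over the divisions of the remaining tissues. Without kidney it was 604 and without the first H3K4me3 library of pancreas 512 (exact permutation p = 0.0286 each), and without the second skeletal muscle library 555 (exact permutation p = 0.0857). Heart was in 45 of the 46 mesoderm-derived regions. Heart was counted from its 1 H3K4me3 library, where other tissues needed both, and 3 of the 46 met the rule without it.

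One-sided regions of the marks overlapped as follows. Of the 2862 endoderm-derived H3K27ac regions 115, or 4.02%, overlapped an endoderm-derived H3K4me3 region, which was 113 of the 307, or 36.8%. On the mesoderm-derived side 5 of 439 regions, 1.14%, overlapped 5 of 46, 10.9%. Of the pairs of opposite sides 0 overlapped, where one-sided H3K27ac regions made up 4.39% and 0.674% of all regions. Of the 307 endoderm-derived H3K4me3 regions, 170 had H3K27ac in endoderm-derived libraries alone, 110 on both sides, 3 in mesoderm-derived libraries alone and 24 none. Of the 46 mesoderm-derived regions, 12 had H3K27ac on their own side alone, 25 on both sides and 9 none. Of the endoderm-derived H3K4me3 regions, 5 were found in all 4 tissues. The longest-covered of them, chr22:37926955-37930185, had 1.37 to 3.07 kb of H3K4me3 in the 8 endoderm-derived libraries and H3K27ac in 7, and chr5:38471323-38472415 had 0.511 to 1.05 kb of H3K4me3 and H3K27ac in all 8. Neither had a peak of either mark in a mesoderm-derived library. The 2 mesoderm-derived H3K4me3 regions of 3 tissues were chr1:116720511-116721987 and chr7:60917930-60918767, each with a peak in 5 of 7 libraries.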

How the data were processed

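ChIP-seq of H3K27ac and H3K4me3 was carried out on 8 marmoset tissues, and the authors deposited 1 peak list per library. Tools listed in the submitters' processing notes, with no role given, were MACS2 (2.1.1.20160309), bedtools (2.26), SAMtools (1.3.1) and Bowtie (1.1.2). Per the peak names in the files, the build was calJac3. The lists deposited by the authors give a fold enrichment (a linear ratio) and a −log10 q-value for each peak. These belong to the authors and were used here only to rank peaks within a list and as a stricter threshold. No reads were used, so depth is unknown and list length limits every count.

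Here peaks of a mark were kept where they overlapped a peak of the other replicate of their tissue. Kept peaks of all tissues that overlapped or touched were merged into regions, with Python 3.11.15, numpy 2.4.6, pandas 2.3.3 and scipy 1.17.1. Heart had 1 H3K4me3 library, and all its peaks were kept. The choice to join touching peaks was made after first values were seen and left the counts of one-sided regions as they were. A tissue had a region where peaks of its replicates overlapped by at least 1 bp (heart H3K4me3: 1 library). A region was one-sided with at least 2 tissues of one side and no peak in any library of the other. Single values were compared by exact two-sided permutation tests over the 35 divisions of 8 tissues into 4 and 4, or by sign flips over 8 tissues, with Benjamini-Hochberg adjustment over 13 tests. Calculations were tested on simulated data. p-values measure the spread between these tissues, which may share animals.

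Named regions were, per side, the 10 with most tissues and then the largest mean covered length, the 2 longest of the most frequent pair, the 5 groups joined within 12 kb with the largest covered length, and up to 5 H3K4me3 regions by the first rule, of which those on assembled chromosomes are printed with positions. The members, lists and rules were chosen with earlier results of these data known. Alternatives were a −log10 q of at least 5, lists of equal length, 50% replicate overlap, assembled chromosomes alone, other rules for presence and absence, counting base by base, percent of regions overlapped, each tissue or library left out, a replicate block and, added after the data were seen, H3K4me3 shares at regions chosen anew for each division. Sequences and genes at the regions were not analysed here.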

Additional observations from a re-analysis of the deposited data

Results flagged for a closer look

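Liver stood apart from the other endoderm-derived tissues in H3K4me3 at regions of exactly 2 tissues of different sides: 12.01% of these 1316 regions had H3K4me3 in liver, against 4.03% in colon, 3.15% in pancreas and 3.27% in stomach. Liver was itself a member of 854 of the 1316 regions, against 205 for colon, 213 for pancreas and 44 for stomach. It was the 1 sample flagged among 22 groups of 4 to 8 values, of which chance flags about 1 in 20.

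The excess of the Jaccard index within sides over that across sides was compared between the marks. On the log2 scale it was higher by 0.0748 for H3K27ac than for H3K4me3 (exact permutation over the 35 divisions, p = 0.0286, 1 of 4 such differences tested, unadjusted). Without adjustment this does not establish a difference between the marks. No value of this contrast with a tissue or library left out is given. Off the log2 scale, the H3K27ac excess was 0.0129 without colon. The H3K4me3 excess was 0.00517 to 0.0345 with single libraries left out.

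The difference in H3K4me3 between endoderm-derived and mesoderm-derived tissues was 12.05 percentage points higher at endoderm-derived than at mesoderm-derived H3K27ac regions. These regions were chosen for H3K27ac on one side, so this is a description: with regions chosen anew for each division the value ranged from 6.7 to 13.8 points with a mean of 10.8 (exact permutation p = 0.543). The 2 other differences, on peak number and covered length between the marks, had an exact permutation p = 0.343 and p = 0.371. The smallest p these divisions allow is 0.0286.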

How the results depend on the processing

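Leaving out whole tissues changed more calls than any threshold, and the causes were not tested. For the H3K27ac Jaccard difference within against across sides, p missed 0.05 without colon (0.0129), liver (0.0248), stomach (0.0236) and heart (0.0261). The sum of one-sided H3K27ac regions missed it without colon (1899), liver (2866), pancreas (2812) and stomach (2080) and with presence in either replicate (12538). The H3K4me3 share at endoderm-derived regions missed it without heart (7.73), kidney (10.4), skeletal muscle (8.11) and spleen (7.6 points), and with regions chosen anew for each division (7.8 points, exact permutation p = 0.171), an alternative added after the data were seen. That share and its counterpart at mesoderm-derived regions were taken at regions chosen on the true division, so their p without this alternative supports nothing.

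Other values passed an exact permutation p of 0.05 under 1 or 2 alternatives. These were H3K27ac covered length without stomach (0.609 on the log2 scale), the H3K4me3 Jaccard difference without kidney (0.0386), the H3K4me3 sum without kidney (604), 2-tissue regions without kidney (153.8) and the H3K4me3 share at mesoderm-derived regions without spleen (-7.95) or with equal lists (-4.86). Without the first H3K4me3 library of pancreas, 4 H3K4me3 values passed: the Jaccard difference (0.0345), the sum (512), peak number (0.172) and covered length (0.386). Signs turned for endoderm-derived minus mesoderm-derived pairs without stomach (-0.00818) and skeletal muscle (-0.00389), and the H3K4me3 sum fell below the mean over divisions without colon (156) and stomach (184). The enhancer-like difference, whose p-values treat values that share regions as independent, was the least stable. It was -0.591 without pancreas, -0.521 without kidney and -1.74 without spleen, and passed an exact permutation p of 0.05 at 6.47 without heart, 5.57 without skeletal muscle, 3.1 with the replicate block and 3.85 with absence judged by regions of both replicates.

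Counts moved by over 1.5 times in several settings. Endoderm-derived and mesoderm-derived regions numbered 9013 and 3525 with presence in either replicate, 4835 and 1121 with absence judged by both replicates, and 7487 and 2580 with the replicate block. Counted base by base they covered 6100 and 911 kb. Endoderm-derived regions numbered 1477 with equal lists, 1421 without colon and 1586 without stomach. Mesoderm-derived regions numbered 862 without liver, 688 without pancreas, 239 without heart, 279 without kidney and 122 without skeletal muscle.

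Leaving out single libraries, which lowers the bar for presence in their tissue, gave 0.0249 to 0.029 for the H3K27ac Jaccard difference, 0.00582 to 0.0457 for pairs of one side against the other and 0.00517 to 0.0345 for H3K4me3. The log2 differences in peak number were 0.261 to 0.317 (H3K27ac) and 0.0612 to 0.195 (H3K4me3), and in covered length 0.43 to 0.524 and 0.161 to 0.433. The sums were 3521 to 4128 (H3K27ac) and 314 to 555 (H3K4me3), with 2940 to 3677 endoderm-derived and 446 to 817 mesoderm-derived regions. The 2-tissue difference was 34.5 to 113, the H3K4me3 shares 6.59 to 8.53 and -5.89 to -2.59 points, and the enhancer-like difference -0.125 to 3.53 points, with -0.125 without the second liver library and -0.0726 without the second pancreas library.

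H3K27ac samples with the same replicate number did not deviate together: over the 28 pairs of tissues the correlations were -0.0201 to 0.0699. For H3K4me3 they were 0.0157 to 0.319 over 21 pairs, 7 of them above 0.1. In all 7 tissues with both H3K4me3 replicates, replicate 1 had fewer peaks and less covered length than replicate 2. A shared effect of the replicate number on H3K4me3 was not tested. The main values did not pair samples by number, and the replicate block was the alternative that kept the numbers apart. The replicate block counts each tissue from 1 library per number, so its counts exceed those above; its Jaccard difference was 0.0272, its sum 10067 and its H3K4me3 share difference 6.73 points, each with an exact permutation p = 0.0286, and it changed no other call than the enhancer-like one. Depth is unknown, and absence of a peak is no absence of the mark.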
